A study of Homo sapiens with 76 samples.

Results

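BTG2, PLK3, SERTAD1 and CEBPD are 4 of the 61 genes of the TGx-DDI biomarker, and they were taken from the panel by their gene symbols in the table of quantification cycles (Cq). Their mRNA was measured by TaqMan RT-qPCR in TK6 cells, a B lymphoblastoid cell line of human origin in which p53 is functional, after 4 h of exposure. The 76 samples were 29 treatments and 9 vehicle controls, with 2 biological replicates each. The study divides the treatments into 14 that induce DNA damage (DDI) and 15 that do not (non-DDI), and asks whether the panel tells the classes apart.

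The DDI treatments were K2CrO4 (100 µM), CdCl2 (50 µM), bleomycin (10 µg/ml), Arabinofuranosyl Cytidine (AraC, 50 µM), hydroxyurea (0.5 mM) and H2O2 (80 µM), all set against H2O. Camptothecin (125 nM), etoposide (200 nM), 5-fluorouracil (25 µg/ml) and cisplatin (80 µM) were set against DMSO, and gamma rays (4 Gy) against culture medium (Media). Methotrexate (100 µM) had NaOH as its vehicle, methylmethane sulfonate (MMS, 40 µg/ml) had its own methanol control (MeOH (for MMS)), and NaAsO2 (20 µM) had its own water control (H2O (for NaAsO2)). Of the non-DDI treatments, 2-deoxyglucose (20 µM) was set against H2O, and docetaxel and paclitaxel (50 nM each), vinblastine (200 ng/ml), trichostatin A (20 ng/ml), apicidin (1 µg/ml) and oxamflatin (1 µM) against DMSO. Heat shock (47°C, for 20 min in the paper) and ethanol at 2% and 4% (EtOH 2%, EtOH 4%) were set against Media. Colchicine (250 ng/ml), antimycin A (100 µM) and tunicamycin (2.5 µg/ml) were set against an ethanol vehicle (EtOH). HC toxin (20 ng/ml) was set against MeOH and thapsigargin (250 nM) against acetonitrile.

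The 4 genes belong to the early response of cells to stress. BTG2 encodes an antiproliferative protein that binds the CCR4-NOT deadenylase and is a known target of the transcription factor p53. PLK3 encodes a polo-like kinase that is induced and activated under genotoxic and oxidative stress, and SERTAD1 encodes a regulator that binds the cyclin-dependent kinase CDK4 and co-activates E2F transcription factors. CEBPD encodes the transcription factor C/EBP delta, which is induced by inflammatory signals and acts in growth arrest.

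The level of a gene is given as 1000 times 2 to the power of −ΔCq, that is, per 1000 units of the mean of the reference genes HPRT and GUSB, and a log2 fold change is −ΔΔCq against the vehicle of the same treatment. Levels are compared between samples and not between genes, since each assay has its own efficiency, and in these bulk samples fewer expressing cells and less RNA per cell cannot be told apart. Each gene gave a Cq in all 76 samples. BTG2 had a mean Cq of 26.8 (23.8 to 28.4), PLK3 27.4 (24.7 to 29.2) and SERTAD1 25.2 (21.6 to 26.4). CEBPD lay near the limit of the assay, with a mean Cq of 35.0 (33.6 to 38.2), the highest of the 61 genes, and 32 of its 76 values were above 35 cycles. The SD between the replicates of a condition was 0.19 cycles for BTG2 and PLK3, 0.35 for SERTAD1 and 0.31 for CEBPD. The panel holds few lineage markers. TNFRSF17, a receptor of the B lineage, was detected with a mean Cq of 28.2, and so were the smooth muscle gene ACTA2 (26.9) and the keratinocyte gene LCE1E (31.3).

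The 250 bases before the start sites of BTG2, PLK3 and SERTAD1 are shown because these 3 genes rose together in most DDI treatments. They are from RefSeq (GRCh38.p14), 5′ to 3′ on the strand of the gene, at chr1:203305269-203305518 (plus strand) for BTG2, chr1:44800127-44800376 (plus strand) for PLK3 and chr19:40425993-40426242 (minus strand) for SERTAD1, and capitals mark GC boxes (GGGCGG on either strand) and CCAAT boxes.
BTG2: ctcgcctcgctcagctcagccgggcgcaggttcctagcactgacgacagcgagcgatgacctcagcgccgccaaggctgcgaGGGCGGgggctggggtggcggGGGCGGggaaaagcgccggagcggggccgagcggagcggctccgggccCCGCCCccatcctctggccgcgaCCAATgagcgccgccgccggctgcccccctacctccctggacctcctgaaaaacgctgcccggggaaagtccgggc
PLK3: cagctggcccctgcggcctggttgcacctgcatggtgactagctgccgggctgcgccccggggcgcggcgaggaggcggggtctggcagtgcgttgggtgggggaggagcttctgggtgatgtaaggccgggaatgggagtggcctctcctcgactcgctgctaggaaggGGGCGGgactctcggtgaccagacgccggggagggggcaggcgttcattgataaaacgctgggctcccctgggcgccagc
SERTAD1: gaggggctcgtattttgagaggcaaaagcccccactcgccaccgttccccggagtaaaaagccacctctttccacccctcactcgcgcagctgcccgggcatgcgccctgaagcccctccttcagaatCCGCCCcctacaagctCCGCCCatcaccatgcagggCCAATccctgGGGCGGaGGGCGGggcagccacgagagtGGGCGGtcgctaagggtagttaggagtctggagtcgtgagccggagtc

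All 3 regions were rich in G and C, with 74.8% in BTG2, 70.0% in PLK3 and 64.8% in SERTAD1. The GC box occurred 3 times in BTG2, 1 time in PLK3 and 5 times in SERTAD1, and 42.6% of 35116 RefSeq promoters of this length hold at least 1. The CCAAT box occurred 76 bases before the start in BTG2 and 86 bases before it in SERTAD1 (32.0% of promoters), and the cyclic AMP response half-site TGACG 210 bases before the start in BTG2 (21.2%). The core of the metal response element, TGCNCNC, occurred 2 times in BTG2, 2 times in PLK3 and 1 time in SERTAD1 (49.1%). Neither a p53 half-site (5.57% of promoters), nor a CArG box (1.16%), nor an NF-kB site (9.96%), nor the letters TATAAA (10.7%), TGANTCA of AP-1 (6.57%) or GAANNTTC of heat shock factors (5.78%) were found on either strand of the 3 windows. CEBPD is on chromosome 8 and its promoter is not shown.

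BTG2, PLK3 and SERTAD1 rose in most DDI treatments, whereas CEBPD fell in 10 treatments and rose in 2. Without the conditions in which CEBPD had a Cq above 35, 6 DDI and 5 non-DDI treatments were left, and CEBPD fell in 1 and rose in 1. A high Cq is itself a low level, so this rule drops treatments in which CEBPD fell. Its counts therefore cannot test those falls. The fall was that in 2-deoxyglucose and the rise that in camptothecin, and neither call was kept under all of the alternatives run. The threshold was an adjusted p of 0.05 (limma, Benjamini-Hochberg over the 61 genes within each treatment). Of all pairs of a panel gene and a treatment, 29.8% were called higher and 13.5% lower. In the DDI treatments these shares were 46.5% and 14.9%, and in the non-DDI treatments 14.2% and 12.1%. BTG2 rose in 12 of the 14 DDI treatments and in 6 of the 15 others, and fell in 0 (2 of the 29 were lower at an unadjusted p under 0.05). PLK3 rose in 13 DDI and 3 non-DDI treatments, and fell in 0 DDI treatments (also 0 unadjusted) and 3 non-DDI treatments. SERTAD1 rose in 10 DDI and 3 non-DDI treatments, and fell in 0 (2 unadjusted). CEBPD rose in 2 DDI and 0 non-DDI treatments (3 and 0 unadjusted), and fell in 4 DDI and 6 non-DDI treatments.

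**Figure D1:**
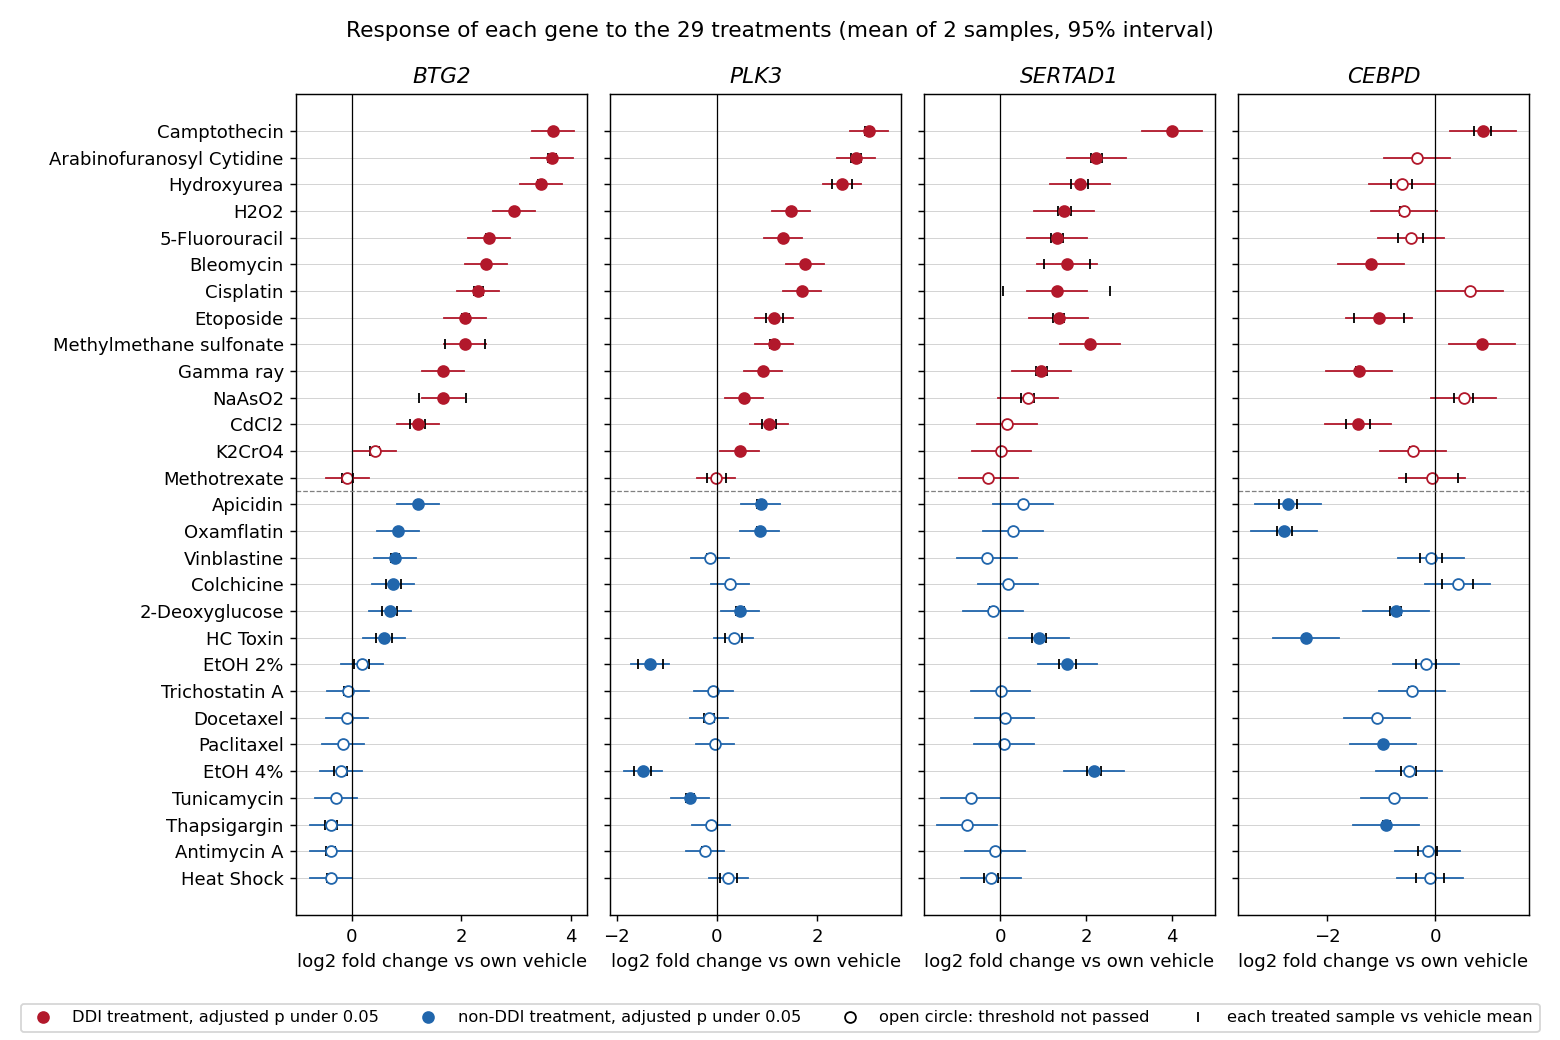
Log2 fold change against the own vehicle (x axis) of each gene in the 29 treatments (rows; DDI above the dashed line, non-DDI below it). Circles are means of 2 samples with 95% intervals, filled where the adjusted p was under 0.05, and ticks are the treated samples against the vehicle mean. BTG2, PLK3 and SERTAD1 run to the right in the DDI rows, up to 4.00 for SERTAD1 in camptothecin, and CEBPD lies left of 0 in most rows.

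All 4 genes rose together in camptothecin and MMS. BTG2, PLK3 and SERTAD1 rose in 8 further DDI treatments, namely bleomycin, AraC, hydroxyurea, H2O2, etoposide, 5-fluorouracil, cisplatin and gamma rays. With the panel median as reference SERTAD1 lost its call in bleomycin (0.53, adjusted p = 0.238), H2O2 (0.77, 0.063) and gamma rays (0.61, 0.139), and rose in 10 treatments instead of 13, and CEBPD lost that in camptothecin (0.33, 0.420). BTG2 and PLK3 rose without SERTAD1 in CdCl2 and NaAsO2, and PLK3 alone in K2CrO4. Methotrexate moved 0 of the 4 genes (also 0 at an unadjusted p), and 6.56% of the panel was called there. In the non-DDI treatments 7 had no gene of the 4 that rose, 4 had 1 and 4 had 2.

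These counts stand beside the share of the panel that moved in each treatment. Higher calls made up 57.4% of the panel in camptothecin and NaAsO2, 42.6% in MMS, 50.8% in bleomycin, 65.6% in AraC, 67.2% in hydroxyurea, 55.7% in H2O2, 49.2% in etoposide, 54.1% in 5-fluorouracil, 34.4% in cisplatin, 52.5% in gamma rays, 39.3% in K2CrO4 and 23.0% in CdCl2. In the non-DDI treatments they were 36.1% in 2-deoxyglucose, 24.6% in EtOH 2%, 21.3% in apicidin, oxamflatin and HC toxin, 18.0% in EtOH 4%, 11.5% in colchicine and 9.84% in vinblastine. Lower calls, in the treatments where CEBPD or PLK3 fell, were 34.4% in thapsigargin, 31.1% in CdCl2, 23.0% in apicidin, 19.7% in oxamflatin and HC toxin, 18.0% in gamma rays, 16.4% in etoposide and 2-deoxyglucose, 14.8% in bleomycin and EtOH 4%, 11.5% in EtOH 2%, 9.84% in tunicamycin and 3.28% in paclitaxel. Antimycin A had no call among the 4 genes, with 24.6% of the panel called, and docetaxel none, with 0.00%. CEBPD lay at −1.08 in docetaxel (adjusted p = 0.058 from limma), with both treated samples below both DMSO samples.

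BTG2 responded most to camptothecin, a topoisomerase I poison, and to the inhibitors of DNA replication. Its levels were 747 and 742 in camptothecin, against 60.0 and 56.7 in DMSO, a log2 fold change of 3.68 (SE 0.19, adjusted p = 9.0e-21 from limma). In AraC, a nucleoside analogue that stops DNA synthesis, they were 451 and 498, against 40.9 and 34.2 in H2O (3.66, SE 0.19, adjusted p = 7.6e-21). In hydroxyurea, which blocks ribonucleotide reductase, they were 398 and 425 (3.46, SE 0.19, adjusted p = 8.3e-20), and in H2O2 288 and 296 (2.97, SE 0.19, adjusted p = 3.0e-17), against the same H2O samples. In each of these treatments both treated samples lay far above both vehicle samples. Further DDI treatments ranged from 1.21 in CdCl2 to 2.50 in 5-fluorouracil. NaAsO2 gave unlike replicates, with levels of 209 and 115, against 39.7 and 60.2 in its own water control (1.67, SE 0.19, adjusted p = 7.1e-10). K2CrO4, at 47.0 and 53.1, did not pass the threshold (0.42, adjusted p = 0.067), and methotrexate, at 68.2 and 78.0, overlapped with NaOH at 79.7 and 74.6.

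The non-DDI treatments moved BTG2 less. Apicidin, an inhibitor of histone deacetylases, gave levels of 131 and 137, against 60.0 and 56.7 in DMSO (1.20, SE 0.19, adjusted p = 7.5e-07). Oxamflatin followed with 105 and 103 (0.84, adjusted p = 2.8e-04). The microtubule poisons vinblastine and colchicine, 2-deoxyglucose and HC toxin gave log2 fold changes between 0.59 and 0.79. The lowest was that of HC toxin, with 111 and 90.6, against 66.3 and 67.2 in MeOH (adjusted p = 0.011). Colchicine gave 117 and 97.1, against 64.3 and 61.6 in EtOH (0.76), and 2-deoxyglucose, an inhibitor of glycolysis, 54.8 and 66.5, against 40.9 and 34.2 in H2O (0.69). These 4 calls were lost when some single sample was left out, at log2 fold changes of 0.44 to 0.72. Vinblastine (adjusted p = 0.061) and colchicine (0.082) were lost without treated replicate 1, HC toxin without treated replicate 1 (0.149) or vehicle replicate 1 (0.0525) and 2-deoxyglucose without treated replicate 2 (0.0509).

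PLK3 shared its 3 highest treatments with BTG2, with smaller changes. Its levels were 409 and 448 in camptothecin, against 51.5 and 52.9 in DMSO (3.04, SE 0.19, adjusted p = 2.9e-18). They were 210.2 and 241 in AraC (2.78, SE 0.19, adjusted p = 6.4e-17), 163 and 214 in hydroxyurea (2.51, SE 0.19, adjusted p = 1.5e-15) and 113 and 110.0 in bleomycin (1.77, SE 0.19, adjusted p = 6.2e-11), against 34.7 and 31.0 in H2O. The treated and vehicle samples did not overlap in any of the 4. The log2 fold change of BTG2 was above that of PLK3 in 12 of 14 DDI treatments, with a median difference of 0.82. The lowest calls among the DDI treatments were 0.45 in K2CrO4 (levels of 44.8 and 45.0) and 0.55 in NaAsO2 (64.7 and 63.4, against 33.1 and 57.7 in its water control). K2CrO4 lost its call whichever of its 4 samples was left out (adjusted p from 0.064 to 0.199). NaAsO2 lost it without treated replicate 1 (0.0515) or vehicle replicate 1 (0.581, log2 fold change of 0.15), and was at 0.17 with HPRT alone (0.740) and 0.09 with the panel median (0.838).

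PLK3 was the only gene of the 4 to fall in ethanol. Its levels were 18.6 and 26.4 in EtOH 2% and 17.8 and 22.4 in EtOH 4%, against 45.1 and 69.1 in Media. The log2 fold changes were −1.33 (SE 0.19, adjusted p = 2.0e-07) and −1.49 (SE 0.19, adjusted p = 2.0e-08), and no ethanol sample reached the lower Media sample. PLK3 was also lower in tunicamycin, an inhibitor of protein glycosylation, at 35.4 and 39.4, against 55.2 and 53.7 in EtOH (−0.54, SE 0.19, adjusted p = 0.026). The PLK3 Cq values of this EtOH vehicle are equal to those in acetonitrile. The call in tunicamycin was lost whichever sample was left out (adjusted p from 0.0520 to 0.188) and with HPRT alone (0.063), while those in ethanol passed in all of the alternatives run. Apicidin and oxamflatin raised PLK3 by 0.87 and 0.85 (adjusted p = 1.2e-04 and 2.1e-04). In 2-deoxyglucose the change of PLK3 was 0.47 (adjusted p = 0.036), and it was lost without treated replicate 2 (0.154), vehicle replicate 1 (0.0545) or vehicle replicate 2 (0.165).

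SERTAD1 had the largest single change of the 4 genes. Its levels were 3506 and 3555 in camptothecin, against 209 and 235 in DMSO (4.00, SE 0.35, adjusted p = 1.3e-13), a fold change of 15.9. AraC gave 1035 and 874, against 210.2 and 193 in H2O (2.24, SE 0.35, adjusted p = 1.6e-07), and MMS 963 and 979, against 215 and 243 in MeOH (for MMS) (2.09, SE 0.35, adjusted p = 1.3e-06). All treated samples of these 3 agents lay above all of their vehicle samples. Cisplatin, a DNA cross-linking agent, was different, with 230.0 in replicate 1 and 1310.4 in replicate 2, against 209 and 235 in DMSO, and this was the only call of the 62 whose treated and vehicle samples overlapped. Its log2 fold change of 1.31 (adjusted p = 0.0014) became 0.06 without treated replicate 2 (adjusted p = 0.913). The Cq of SERTAD1 in cisplatin replicate 1 is equal to that in colchicine replicate 1 to the last digit, as for 12 of the 61 genes of these samples, and it is not known to which sample these values belong. The cisplatin pair enters the spread that all SERTAD1 contrasts share (SD 0.35), and it widens their SE. A SERTAD1 change that did not pass is therefore not shown to be absent. Gamma rays gave SERTAD1 levels of 516 and 432, against 233 and 254 in Media. The call in gamma rays (0.96, adjusted p = 0.014) was lost without treated replicate 1 (0.0908) or vehicle replicate 1 (0.0678).

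In ethanol SERTAD1 rose and PLK3 fell. The levels of SERTAD1 were 631 and 821 in EtOH 2% and 983 and 1231 in EtOH 4%, against 233 and 254 in Media (1.56, adjusted p = 2.8e-04, and 2.18, adjusted p = 2.0e-06; SE 0.35 each). EtOH 4% was the third highest of the 29 treatments for SERTAD1, behind camptothecin and AraC, and the lowest for PLK3. The B-lineage gene TNFRSF17 was lower in EtOH 4% (−0.69, adjusted p = 0.014), and its part in these results was not tested. BTG2 had 75.1 and 90.6 in EtOH 2% and 58.5 and 68.9 in EtOH 4%, against 70.8 and 75.1 in Media, and CEBPD 0.366 and 0.473 in EtOH 2% and 0.302 and 0.367 in EtOH 4%, against 0.495 and 0.442. Neither passed the threshold at either concentration (adjusted p from 0.239 to 0.737). Between the concentrations, EtOH 4% minus EtOH 2% was 0.61 for SERTAD1 (95% interval −0.08 to 1.31, adjusted p = 0.182) and −0.15 for PLK3 (−0.53 to 0.23, adjusted p = 0.560), so no difference was shown, with 27.9% of the panel called. HC toxin was the other non-DDI treatment with higher SERTAD1, with 398 and 502, against 211 and 273 in MeOH (0.90, adjusted p = 0.033). That call was lost without treated replicate 2 (0.205) or vehicle replicate 1 (0.206).

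**Figure D2:**
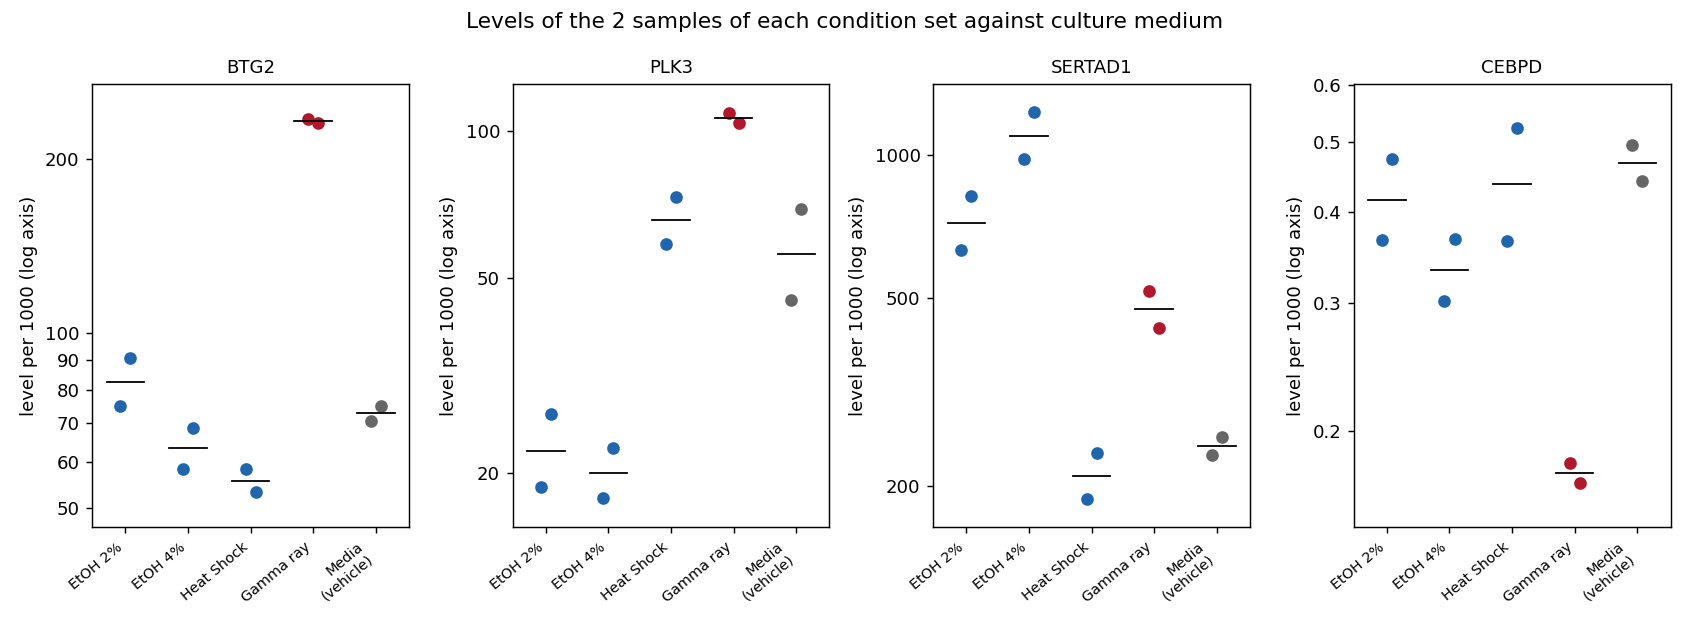
Level per 1000 (log axis) of each gene in the 2 samples of EtOH 2%, EtOH 4%, heat shock, gamma rays and their vehicle, Media; bars are geometric means. In ethanol SERTAD1 lies between 631 and 1231, above Media at 233 and 254, and PLK3 between 17.8 and 26.4, below Media at 45.1 and 69.1.

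Heat shock shared the Media vehicle and moved none of the 4 genes at the adjusted threshold. BTG2 had 58.3 and 53.3, against 70.8 and 75.1 in Media (−0.39, adjusted p = 0.432 from limma), and both treated samples lay below both of Media. Set directly against EtOH 4%, heat shock was higher for PLK3 by 1.72 (95% interval 1.34 to 2.10, adjusted p = 1.3e-09) and lower for SERTAD1 (−2.39, interval −3.08 to −1.69, adjusted p = 3.4e-07), with 31.1% of the panel called. Of the whole panel, 3.28% was called in heat shock, 36.1% in EtOH 2% and 32.8% in EtOH 4%.

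CEBPD rose in camptothecin and MMS. Its levels were 0.856 and 1.07 in camptothecin, against 0.653 and 0.411 in DMSO (0.89, SE 0.30, adjusted p = 0.0089), and 0.522 and 0.513 in MMS, against 0.221 and 0.357 in MeOH (for MMS) (0.88, SE 0.30, adjusted p = 0.012). The treated samples lay above the vehicle samples in both, but by less than the vehicle samples lay apart in DMSO. The call in camptothecin was lost without treated replicate 2 (0.0881) or vehicle replicate 2 (0.193) and with the panel median as reference (0.420), and that in MMS without vehicle replicate 1 (0.249). CEBPD was the second lowest of the 9 vehicles in MeOH (for MMS), and against the mean of all 9 its change in MMS was 0.25 (0.290). With only the samples of MMS and its vehicle in the fit, the adjusted p was 0.069. Cisplatin, at 0.788 and 0.833, did not pass (0.65, adjusted p = 0.069).

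CEBPD fell most in 3 inhibitors of histone deacetylases. Its levels were 0.0817 and 0.0675 in oxamflatin and 0.0691 and 0.0872 in apicidin, against 0.653 and 0.411 in DMSO. The log2 fold changes were −2.80 (SE 0.30, adjusted p = 2.3e-10) and −2.74 (SE 0.30, adjusted p = 2.8e-10). HC toxin gave 0.0773 and 0.0733, against 0.406 and 0.390 in MeOH (−2.40, SE 0.30, adjusted p = 6.9e-09). These 6 samples had a Cq of 37.1 to 38.2 for CEBPD, while the highest of the other 70 samples was 36.4. TNFRSF17 was lower in the same treatments, with −1.49 in oxamflatin, −1.80 in apicidin and −1.58 in HC toxin, and its part in the result was not tested. Trichostatin A, the fourth inhibitor of this kind, gave 0.401 and 0.370 (−0.43, adjusted p = 0.994), and only 1.64% of the panel was called there. The inhibitors were used at different doses (oxamflatin at 1 µM, apicidin at 1 µg/ml, trichostatin A and HC toxin at 20 ng/ml).

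**Figure D3:**
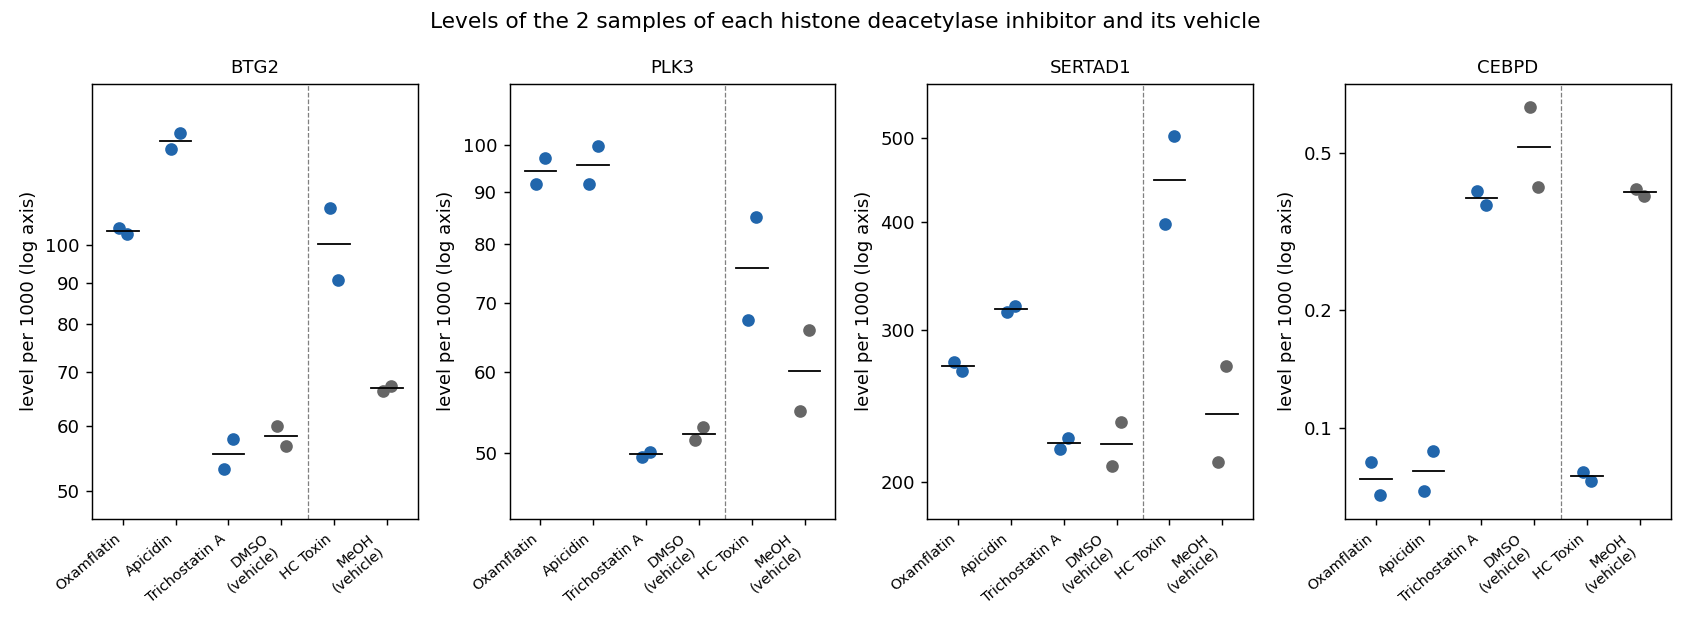
Level per 1000 (log axis) of each gene in the 2 samples of oxamflatin, apicidin and trichostatin A with their vehicle DMSO, and of HC toxin with MeOH; bars are geometric means. CEBPD lies between 0.0675 and 0.0872 in 3 of the inhibitors and at 0.370 and 0.401 in trichostatin A.

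Direct contrasts in the same vehicle set these inhibitors apart. Apicidin minus trichostatin A was −2.31 for CEBPD (95% interval −2.92 to −1.70, adjusted p = 1.3e-08), 1.28 for BTG2 (0.89 to 1.66, adjusted p = 2.2e-07) and 0.94 for PLK3 (0.56 to 1.32, adjusted p = 4.2e-05). Oxamflatin and trichostatin A are both hydroxamates, and oxamflatin minus trichostatin A was −2.38 for CEBPD (−2.99 to −1.76, adjusted p = 1.4e-08), 0.91 for BTG2 (0.53 to 1.29) and 0.92 for PLK3 (0.54 to 1.30). SERTAD1 passed in neither contrast, at 0.52 (−0.18 to 1.21, adjusted p = 0.250) and 0.30 (−0.40 to 0.99, adjusted p = 0.606). Background shares were 47.5% and 42.6% of the panel, and the doses of the compounds differed. Docetaxel and paclitaxel, taxanes used at the same dose of 50 nM, were not shown to differ in any gene of the 4, with differences from −0.12 to 0.07 (widest interval −0.72 to 0.50, CEBPD), and 0.00% of the panel was called.

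CEBPD also fell in gamma rays, with 0.181 and 0.169, against 0.495 and 0.442 in Media (−1.42, adjusted p = 8.6e-05), and in CdCl2, with 0.263 and 0.192, against 0.793 and 0.462 in H2O (−1.43, adjusted p = 1.2e-04). The treated samples lay below both vehicle samples in each. These calls were kept whichever sample was left out, but all of their treated samples had a CEBPD Cq above 35. Bleomycin (−1.19), etoposide (−1.05), paclitaxel (−0.97), thapsigargin (−0.91) and 2-deoxyglucose (−0.73) passed as well, but each lost its call when some single sample was left out. Thapsigargin, which blocks the calcium pump of the endoplasmic reticulum, gave 0.316 and 0.345, against 0.667 and 0.575 in acetonitrile. The CEBPD levels of 2-deoxyglucose, 0.341 and 0.391, were below those of H2O, 0.793 and 0.462. Bleomycin was lost without vehicle replicate 1 (0.0547) and etoposide without treated replicate 1 (0.161) or vehicle replicate 1 (0.0914). Thapsigargin was lost without treated replicate 1 (0.0662) or vehicle replicate 1 (0.108), with the panel median (−0.46, 0.302) and against the mean of all 9 vehicles (−0.40, 0.128). CEBPD was highest of the 9 vehicles in acetonitrile, where its Cq values are equal to those in EtOH. Paclitaxel was lost without treated replicate 1 (0.209), treated replicate 2 (0.269) or vehicle replicate 1 (0.995). 2-deoxyglucose was lost without treated replicate 1 (0.181), treated replicate 2 (0.0621) or vehicle replicate 1 (0.456).

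Camptothecin and etoposide, poisons of topoisomerase I and of topoisomerase II, differed in all 4 genes. Camptothecin minus etoposide was 1.60 for BTG2 (95% interval 1.22 to 1.98, adjusted p = 1.7e-09), 1.89 for PLK3 (1.50 to 2.27, adjusted p = 1.6e-11), 2.64 for SERTAD1 (1.94 to 3.34, adjusted p = 1.6e-08) and 1.93 for CEBPD (1.32 to 2.54, adjusted p = 8.2e-07). Of the panel, 47.5% was called in this contrast, 31.1% higher in camptothecin. CEBPD had 0.181 and 0.348 in etoposide, so that it was above DMSO in camptothecin and below it in etoposide. CdCl2 minus K2CrO4 was 0.79 for BTG2 (0.41 to 1.17, adjusted p = 7.3e-04), 0.59 for PLK3 (0.21 to 0.97, adjusted p = 0.0072) and −1.01 for CEBPD (−1.62 to −0.40, adjusted p = 0.0043), with 57.4% of the panel called. SERTAD1 was not shown to differ there (0.13, −0.57 to 0.82). Without CdCl2 replicate 2 the difference of PLK3 was 0.45 (adjusted p = 0.106) and that of CEBPD −0.78 (0.081). With the panel median as reference the difference was 1.38 for BTG2, 1.18 for PLK3 and −0.43 for CEBPD (0.356). AraC minus hydroxyurea was between 0.21 and 0.39 for the 4 genes and passed in none (adjusted p from 0.643 to 0.800), with 3.28% of the panel called. Bleomycin minus H2O2 passed in none either, with −0.51 for BTG2 as the lowest adjusted p (0.063, interval −0.89 to −0.12) and 13.1% of the panel called.

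The class difference was tested over the treatments. The paper states that the panel was derived earlier, from microarray profiles of the same reference agents in TK6 cells, to discriminate the classes. Class differences in its genes were therefore expected from that choice, and their p-values are not independent evidence. BTG2 averaged 2.15 ± 1.13 in DDI and 0.21 ± 0.55 in non-DDI treatments (log2 fold change, SD, n = 14 and 15), a difference of 1.94 with a standard error of 0.31 (adjusted p = 4.9e-06 from limma), the third largest of the 61 genes. PLK3 averaged 1.42 ± 0.88 in DDI and −0.07 ± 0.67 in non-DDI treatments, a difference of 1.49 (SE 0.28, adjusted p = 3.0e-05 from limma). SERTAD1 averaged 1.33 ± 1.08 in DDI and 0.23 ± 0.79 in non-DDI treatments, a difference of 1.10 (SE 0.33, adjusted p = 0.0035 from limma). CEBPD averaged −0.33 ± 0.81 in DDI and −0.89 ± 1.00 in non-DDI treatments, and its difference of 0.56 (95% interval −0.09 to 1.21) did not pass (adjusted p = 0.108). Of the panel, 75.4% passed in this comparison, 57.4% higher in DDI. With the median of the panel as reference the difference of SERTAD1 was 0.59 (adjusted p = 0.106).

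**Figure D4:**
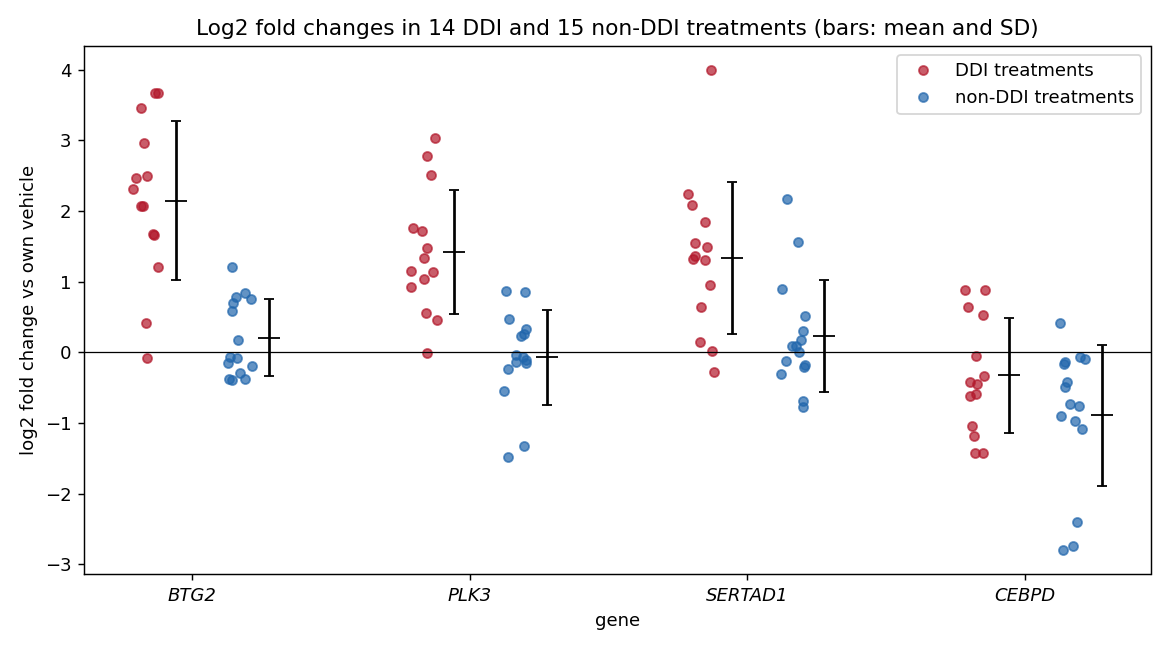
Log2 fold change against the own vehicle (y axis) of each gene in 14 DDI (red, left) and 15 non-DDI treatments (blue, right); black bars are means with SD. The class means are 2.15 and 0.21 for BTG2 and −0.33 and −0.89 for CEBPD, and the 3 lowest non-DDI points of CEBPD are the inhibitors of histone deacetylases.

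Within the treatments set against DMSO (4 DDI, 6 non-DDI) the class difference was 2.22 for BTG2 (adjusted p = 7.3e-04), 1.59 for PLK3 (0.0053), 1.88 for SERTAD1 (0.0071) and 1.36 for CEBPD (0.070, interval 0.00 to 2.72). With the solvent as a block the differences were 1.95, 1.43, 1.35 (adjusted p = 8.6e-05, 7.9e-04 and 0.0047) and 0.92 (0.052) for the same genes. For that block H2O was merged with H2O (for NaAsO2), and MeOH with MeOH (for MMS), so the MeOH block held both classes. Taken separately, H2O holds 1 non-DDI and Media 1 DDI treatment. Each of the remaining vehicles besides DMSO holds 1 class only, where class and vehicle cannot be told apart.

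The vehicles were not alike for these genes. In H2O, BTG2 had 40.9 and 34.2, and 1 sample of the 8 other vehicles, H2O (for NaAsO2) replicate 1 at 39.7, lay between them, with the next at 54.8. H2O minus the mean of the 8 others was −0.81 for BTG2 (SE 0.14, adjusted p = 3.8e-06) and −0.82 for PLK3 (SE 0.14, adjusted p = 3.0e-06), and 70.5% of the panel was called, 55.7% lower in H2O. SERTAD1 did not pass (−0.16, interval −0.68 to 0.36), and CEBPD was higher in H2O by 0.53 (adjusted p = 0.035), though not without H2O replicate 1 (0.14, adjusted p = 0.708). With the panel median as reference the difference was −0.21 for both BTG2 and PLK3 (adjusted p = 0.180 and 0.179). H2O also stood 1.54 above the other water control, H2O (for NaAsO2), for CEBPD (SE 0.30, adjusted p = 4.9e-05), where 50.8% of the panel was called. MeOH minus MeOH (for MMS) passed for none of the 4 genes (adjusted p from 0.188 to 0.905), with 21.3% of the panel called.

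The choice of vehicle touches the 7 treatments set against H2O. Set against the 8 other vehicles, BTG2 was 2.85 higher in AraC, 2.65 in hydroxyurea, 2.15 in H2O2, 1.65 in bleomycin and 0.40 in CdCl2, all past the threshold. BTG2 lay at −0.39 in K2CrO4 (adjusted p = 0.066 from limma), against 0.42 with its own vehicle, and at −0.12 in 2-deoxyglucose (adjusted p = 0.760). PLK3 was still higher in AraC, hydroxyurea, bleomycin and H2O2, by 1.96 to 0.66, and was no longer called in CdCl2 (0.23, adjusted p = 0.133), K2CrO4 (−0.36, 0.079) or 2-deoxyglucose (−0.35, 0.175). CEBPD was still lower in CdCl2 (−0.89) and bleomycin (−0.65), and lay at −0.20 in 2-deoxyglucose (adjusted p = 0.760). Some Cq values are also equal between vehicles. EtOH and acetonitrile share 50 of 61 values in both replicates, those of all 4 genes among them, while their reference genes differ. PLK3 and SERTAD1 in MeOH replicate 1 are equal to these too. It is not known to which vehicle the values belong. They enter the calls of BTG2 in colchicine, PLK3 in tunicamycin, SERTAD1 in HC toxin and CEBPD in thapsigargin.

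**Figure D5:**
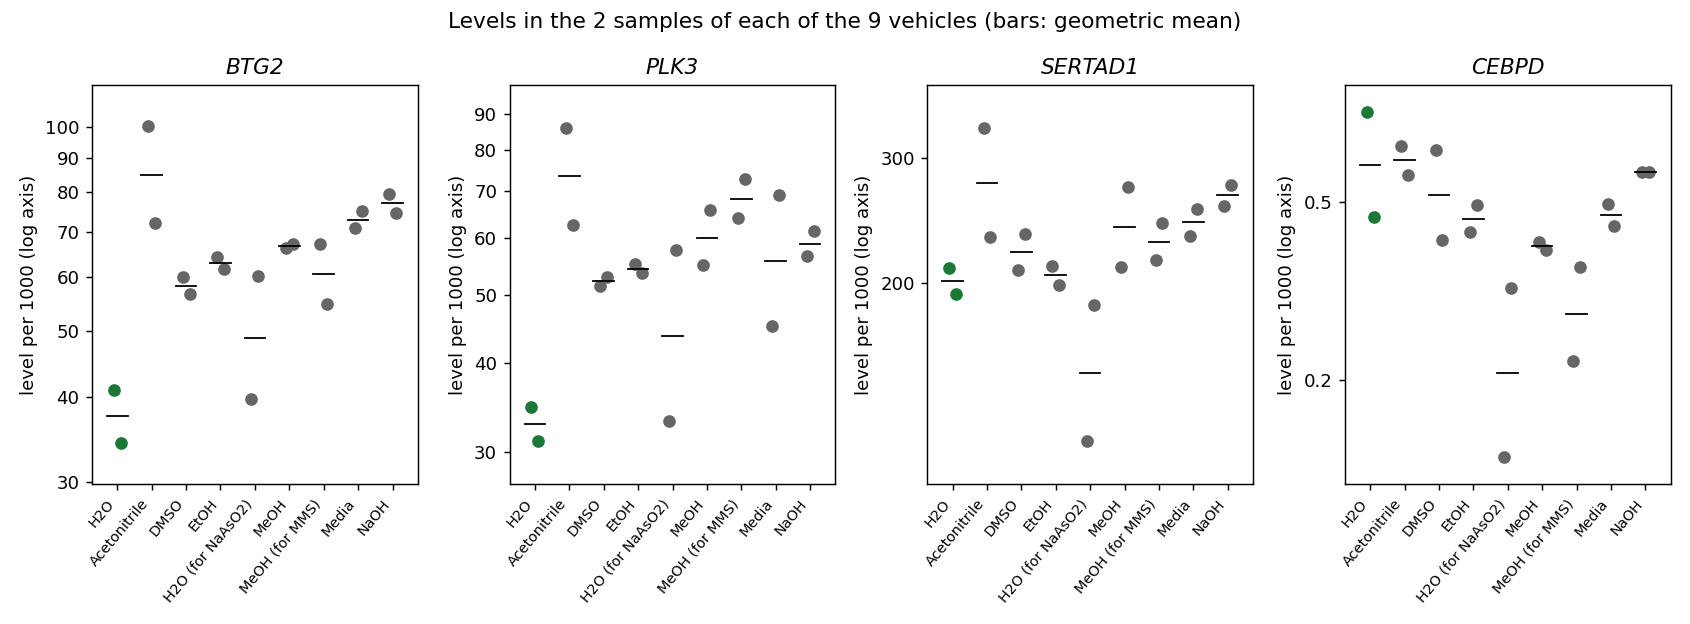
Level per 1000 (log axis) of each gene in the 2 samples of the 9 vehicles, with H2O in green and bars at the geometric mean. The means of BTG2 and PLK3 are lowest in H2O, at 34.2 and 40.9 for BTG2, and the mean of CEBPD is lowest in H2O (for NaAsO2), at 0.135 and 0.321.

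Over the 29 treatments, which share vehicle samples, BTG2 was most like PLK3 (Pearson r = 0.91, Spearman rho = 0.91), and the non-member genes closest to it were DUSP14, a dual-specificity phosphatase (r = 0.89), TRIAP1, a p53-regulated inhibitor of apoptosis (0.87), and PRKAB1, a subunit of AMP-activated kinase (0.87). The median r of BTG2 with the other 60 genes was 0.58. PLK3 was closest to TRIAP1 (0.87), LCE1E (0.82) and ITPKC, an inositol trisphosphate kinase (0.80), beside a median of 0.48. SERTAD1 was closest to DUSP14 (0.83), the repressor E2F7 (0.80) and BRMS1L (0.73), beside a median of 0.46. CEBPD stood alone among the 4, with r = 0.18 to BTG2, 0.08 to PLK3 and 0.27 to SERTAD1, and its nearest genes by Pearson r were TOPORS (0.74), COIL (0.58) and E2F8 (0.53), beside a median of 0.15. By rank they gave Spearman rho of 0.55, 0.21 and 0.36, and GADD45A gave 0.56. Within the DDI treatments (n = 14) r was 0.93 between BTG2 and PLK3, 0.87 between BTG2 and SERTAD1 and 0.87 between PLK3 and SERTAD1. Within the non-DDI treatments (n = 15) it was 0.56, 0.15 and −0.49 for the same pairs. Without the ethanol treatments, left out after the values were seen, r between PLK3 and SERTAD1 was 0.64 over 13 non-DDI treatments.

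The other p53 targets of the panel give the setting for BTG2 and PLK3, and they too belong to a panel chosen to discriminate the classes. Of 18 such genes, 17 were higher in DDI than in non-DDI treatments and 0 lower, with a median difference of 1.17, beside 0.60 over all 61 genes, of which 57.4% were higher and 18.0% lower. GADD45A, a growth arrest gene, was the exception, at 0.47 (adjusted p = 0.234). CDKN1A, the gene of the cyclin-dependent kinase inhibitor p21, rose in 15 and fell in 2 of the 29 treatments, and MDM2, the ubiquitin ligase of p53, rose in 12 and fell in 0. In camptothecin 16 of the 18 rose, with a median of 1.30, and in MMS 14, with a median of 0.84, where 57.4% and 42.6% of the panel rose. In EtOH 4%, where SERTAD1 rose and PLK3 fell, 3 of the 18 rose and 1 fell (median −0.02), a share of higher calls near the 18.0% of the panel, GADD45A rose by 1.65 (adjusted p = 1.3e-08) and CDKN1A did not pass (0.29, adjusted p = 0.396). In oxamflatin, apicidin and HC toxin, 2 of the 18 rose in each and 3, 5 and 4 fell, with medians of −0.12, −0.22 and −0.20. Of the panel, 21.3% rose in each and 19.7%, 23.0% and 19.7% fell. CDKN1A, 1 of the few that rose, was higher by 0.55, 1.13 and 0.90, all past the threshold. Of 8 other regulators of growth arrest and stress, 5 were higher and 1 lower in DDI (median 0.75), near the 57.4% of the panel that was higher, and 7 of the 8 rose in camptothecin (median 1.47, beside 0.67 over all genes, of which 57.4% rose).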

How the data were processed

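The authors exposed TK6 cells to each agent and its vehicle on separate occasions, extracted total RNA and ran TaqMan arrays on a CFX96 system. The deposited table gives 1 Cq per gene and sample, in cycles, and the deposited fold changes, which hold the authors' own comparisons, were not used. The software that set the Cq is not given in the sources used here.

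Each Cq was subtracted from the mean Cq of HPRT and GUSB. All 76 samples entered 1 fit in limma 3.58.1 (R 4.3.3) with 38 condition means and 38 residual degrees of freedom. A treatment was contrasted with the vehicle that belonged to it, and p-values were adjusted over its 61 genes. For the classes, limma was run on the mean log2 fold changes of the 29 treatments. The 2 replicates are separate exposures, and their number limits the precision. In simulated data of 61 genes and 29 treatments, 45.8% of log2 changes of 0.5, 83.7% of 1 and 93.6% of 2 were recovered, and 2.37% of calls fell on unchanged genes. The simulation drew independent noise for each gene and sample around a shared vehicle mean. It held no differences between vehicles, no shared error of the reference genes and no repeated Cq values. These shares therefore need not hold for the measured samples.

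The 4 genes and the gene lists were chosen with earlier results of these data known. Values per sample were to be given for the 4 highest and 3 lowest log2 fold changes of a gene among called treatments that moved alike in both replicates, and other treatments were added after their values were seen. For each gene, 3 others with the highest Pearson r were named. Alternatives were the reference gene, the vehicle, the samples in the fit, the adjustment, a replicate block and left-out replicates, and, added after seeing the data, leaving out treatments with repeated Cq values and ethanol. Promoters came from a RefSeq table (GRCh38.p14), in which 3 of the 4 genes were matched. Plots were made in matplotlib 3.10.9 (Python 3.11.15).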

Additional observations from a re-analysis of the deposited data

How the results depend on the processing

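Of 62 calls of a gene in a treatment, 41 were kept under all of 12 alternatives. With the mean of all 9 vehicles 4 calls were lost and 3 changed sign (PLK3 in K2CrO4, −0.27, and 2-deoxyglucose, −0.26, and BTG2 in 2-deoxyglucose, −0.03), and BTG2 and SERTAD1 each fell in 1 treatment, against 0. With the 8 other vehicles for treatments in H2O, the same 3 changed sign. With the panel median, 9 were lost and PLK3 in K2CrO4 changed sign (−0.21). CEBPD rose in 1 treatment and not 2 with the panel median, with the samples of a vehicle set only, and without conditions with a Cq above 35. SERTAD1 fell in 1 with a vehicle set only. CEBPD fell in 16 treatments with GUSB alone, against 10. Without conditions with a Cq above 35 it fell in 1, among the 6 DDI and 5 non-DDI treatments left. That rule itself drops low levels. Leaving out each replicate in turn, CEBPD rose in 1 to 2 and fell in 5 to 13 treatments, and BTG2 and SERTAD1 fell in 0 to 1. The cause was not tested.

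The class difference of SERTAD1 was 0.59 (adjusted p = 0.106) with the panel median. That of CEBPD, 0.56 in the main fit, passed with the 8 other vehicles (0.76, adjusted p = 0.025) and without the 7 treatments in H2O (0.90, 0.0487). It also passed without replicate 1 (0.66, against 0.46 without replicate 2). With the panel median it was 0.05 (0.907). Without conditions with a Cq above 35 it was 0.26 (0.543), over 6 DDI and 5 non-DDI treatments. The panel median moved the median gene by −0.44 in DDI and 0.07 in non-DDI treatments, HPRT alone by 0.13 and 0.03.

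A replicate block for the samples of a vehicle and a replicate number changed 0 of the 62 calls, and BTG2 then rose in 19, PLK3 in 16 and SERTAD1 in 13 treatments, and CEBPD rose in 3 and fell in 13. The calls it added were BTG2 in K2CrO4 (adjusted p = 0.042) and CEBPD in cisplatin (0.048), hydroxyurea (0.038), docetaxel (0.025) and tunicamycin (0.032). Over 29 treatments the correlation of the deviations of treated and vehicle samples of the same number had a median of 0.24 (−0.72 to 0.91), over 0.1 in 19 and under −0.1 in 7, and although agents and vehicles were exposed together on separate occasions, nothing ties a number to an occasion across samples, so the numbers were not taken to pair them. Cq values above 35 limit CEBPD, since 10 of 28 DDI, 17 of 30 non-DDI and 5 of 18 vehicle samples lay there.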
